A study of Mus musculus with 16 samples.

Results

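The Gadd45 family and a set of p53 growth arrest genes were examined in mouse liver: Gadd45a, Gadd45b, Gadd45g, Trp53, Mdm2, Cdkn1a, Ccng1, Btg2 and Bax. These 9 genes were chosen by symbol, with earlier results of the same libraries in view, from 35275 gene IDs in the deposited expression table, and all 9 were found. All 9 also passed the filter of at least 1 FPKM in at least 4 libraries, which kept 11298 genes. FPKM are fragment counts scaled by gene length and library depth, so levels of different genes can be set side by side. Because the choice was made with these libraries' results known, the differences given for the 9 genes are a description of these livers, and nothing is supported with them.

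Liver RNA was sequenced from 16 mice in 4 groups of 4: wild-type (WT) mice on control diet, WT mice on an ethanol-containing diet, and mice with a liver-specific knockout of Zfp36l1 (LKO) on the same control or ethanol diets. The labels give no Cre driver, strain, sex, age, diet composition or feeding time. They also give no information on shared litters or housing, so the p-values below measure only the spread between these livers.

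Cells that meet DNA damage or other stress stabilise the transcription factor p53, encoded by Trp53, and p53 then switches on genes that stop the cell cycle or start cell death. Cdkn1a, which encodes the cyclin-dependent kinase inhibitor p21, is a main effector of arrest in the G1 phase. Mdm2 encodes the ubiquitin ligase that returns p53 to a low level. The Gadd45 genes encode 3 small proteins that bind PCNA, p21 and the kinase MAP3K4 and take part in DNA repair, active DNA demethylation and stress kinase signalling. Gadd45a is a textbook p53 target, and Gadd45b is known as an early gene of liver regeneration. ZFP36L1, the protein removed in LKO livers, binds AU-rich elements in 3′ untranslated regions (UTRs) and brings mRNAs to the CCR4-NOT deadenylase.

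Zfp36l1 itself checked the labels. It lay between 9.30 and 25.5 FPKM in the 8 WT livers and between 0.572 and 1.76 FPKM in the 8 LKO livers, with no overlap. Depth, taken from the whole-read steps in the FPKM values, was 19069903 to 24768569 reads in 15 libraries and 9890475 in WT ethanol library 2. This library stood apart in other ways as well. Mitochondrial genes took 22.52% of its reads, against 3.64% to 6.97% elsewhere, and its median Spearman correlation with the other libraries was 0.691, against 0.905 to 0.951. The 5 red blood cell markers summed to 2160 FPKM in it, against group medians of 187.5 to 239, carried by Hbb-bs, Hba-a1 and Hba-a2, with Alas2 the lowest of the 16 livers. In it 6 endothelial markers summed to 12.8 FPKM and 6 stellate cell markers to 14.4, the lowest of the 16 livers in both cases, although Des was the highest. The 6 cholangiocyte markers summed to 74.98 FPKM in this library, the highest of the 16 livers, with 1 of them at 0. Among its hepatocyte markers Apoa1 was the highest of the 16 livers, at 34500 FPKM, and Alb (23000 FPKM), Hnf4a (22.2 FPKM) and Tat (116.6 FPKM) were the lowest. The main differences of the 9 genes that use this library are therefore given with and without it. Another split, known from earlier results and named by no label, sets libraries 1 and 2 of each group against libraries 3 and 4, and for many of the differences the values within each side are given, the side of libraries 1 and 2 first. In bulk liver, fewer cells of a type and less RNA per cell cannot be told apart.

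Short sequences are shown for 2 reasons. AU-rich heptamers are given because the knocked-out protein binds such elements, and p53-type motifs because p53 targets are among the 9 genes. The AU-rich heptamer TATTTAT was searched on the sense strand of 1 annotated 3′ UTR per gene (GENCODE M21, GRCm38). It was found once in the 3′ UTR of 4 of the 9 genes, and 29.1% of 10529 kept genes hold it. The 4 sites are given 5′ to 3′ with the heptamer in capitals:
Gadd45a, chr6:67035140-67035162, minus strand: tgaaaggtTATTTATgataaagt
Mdm2, chr10:117688918-117688940, minus strand: attgatgtTATTTATttgcaaat
Ccng1, chr11:40749080-40749102, minus strand: tgaaaatgTATTTATtgcactaa
Btg2, chr1:134077252-134077274, minus strand: tgaagagcTATTTATacatgttt

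In Btg2 the heptamer starts at base 103 of a 2199-base 3′ UTR, and in Gadd45a at base 505 of 563. In Mdm2 it starts at base 1278 of 1335, and in Ccng1 at base 1774 of 2316. These letters are not in the 3′ UTRs of Gadd45b (558 bases), Gadd45g (489), Cdkn1a (1334), Trp53 (565) or Bax (224). The core pentamer ATTTA, which the heptamer contains, occurs 8 times each in Mdm2 and Ccng1, 5 times in Btg2, 4 times in Cdkn1a, 2 times in Gadd45a, once in Trp53 and not in Gadd45b, Gadd45g or Bax. A match is a description and does not show binding.

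The p53 response element, made of 2 adjoining 10-base units, was searched on both strands of the RefSeq promoter windows of GRCm38.p6, from 250 bases before to 50 after each gene start, allowing 3 mismatches in 20 bases and no spacer. Among 32851 promoter windows 1.38% hold such a match, and the windows of 3 of the 9 genes do, 1 of the 2 listed for Cdkn1a among them. The matched bases are in capitals, read along the gene:
Cdkn1a, chr17:29090923-29090952, plus strand: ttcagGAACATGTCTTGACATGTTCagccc
Ccng1, chr11:40755457-40755486, minus strand: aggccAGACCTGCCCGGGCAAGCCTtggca
Trp53, chr11:69580279-69580308, plus strand: cggaaGGACTTGCCCTTACTTGTTAtggcg

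Counted from RefSeq's gene starts, which can differ from the GENCODE spans given below, the Cdkn1a match begins at −51 and the Ccng1 match at −195, each with 1 mismatch, and the Trp53 match begins at −75 with 3 mismatches. The other windows do not hold these letters, which says nothing of p53 binding outside them.

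Gadd45g was the most abundant member of its family in 14 of the 16 libraries. It was the only 1 of the 9 genes whose WT and LKO livers did not overlap on ethanol, beside 2.69% of all genes. It encodes a family member known to be induced by cytokines. The gene (ENSMUSG00000021453) spans chr13:51846678-51848468 on the plus strand. On control diet it measured 18.0, 16.7, 33.9 and 26.9 FPKM in WT livers and 22.5, 29.2, 23.4 and 18.0 FPKM in LKO livers. On ethanol it measured 26.7, 44.2, 49.98 and 42.1 FPKM in WT livers and 8.72, 6.60, 14.7 and 14.8 FPKM in LKO livers. Every LKO ethanol liver was below every WT ethanol liver and below every LKO control liver, while WT livers on the 2 diets overlapped. The 2 LKO groups did not overlap for 12.3% of all genes. In order of group mean the levels were 40.7 ± 9.95 FPKM (SD, n = 4) in WT on ethanol, 23.9 ± 8.07 in WT on control diet, 23.3 ± 4.61 in LKO on control diet and 11.2 ± 4.19 in LKO on ethanol. The 2 control groups, neighbours in this order, did not differ beyond their spread.

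In the limma model over all kept genes, the LKO minus WT difference of Gadd45g on ethanol was −1.81 ± 0.31 (SE) on the log2(FPKM + 1) scale, which understates changes of low genes, with a Benjamini-Hochberg adjusted p of 0.0244. On control diet it was 0.00 ± 0.31, made of 0.54 on libraries 1 and 2 and −0.54 on libraries 3 and 4. The ethanol minus control difference was 0.77 ± 0.31 in WT (adjusted p = 0.175) and −1.04 ± 0.31 in LKO (adjusted p = 0.18). The difference between those 2 responses, the interaction, was −1.81 ± 0.43, with an unadjusted p of 0.000645 and an adjusted p of 0.927 over all genes. Without WT ethanol library 2 the genotype difference on ethanol was −1.76 ± 0.31 (adjusted p = 0.0288), and within the sides of the library split it was −2.04 and −1.57. Adjusted p passed 0.05 without LKO ethanol library 1 (0.133), LKO ethanol library 3 (0.0528), WT ethanol library 3 (0.085) or WT ethanol library 4 (0.104), and under 3 other settings, at most 0.0832. Without WT ethanol library 2 the WT ethanol difference of Gadd45g was 0.72 ± 0.31 and the interaction −1.76 ± 0.42 (adjusted p = 0.153 and 0.812).

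Other settings also called the ethanol responses of Gadd45g. Library weights were 0.278, 0.0418, 5 and 1.06 for WT ethanol libraries 1, 2, 3 and 4. Weighted WT ethanol means, here and below, therefore rest mainly on library 3. These weights called Gadd45g for ethanol in WT (1.10, adjusted p = 0.00149), in LKO (−1.02, adjusted p = 0.0201) and in the interaction (−2.11, adjusted p = 0.00781). With those weights the calls over all genes rose to 38.4% for ethanol in WT, 7.69% for ethanol in LKO, 36.7% on average, 30.7% for LKO against WT on ethanol and 4.48% for the interaction. With the library split as a term and WT ethanol library 2 left out, where 10.7% of all genes were called for ethanol in LKO, Gadd45g was called in LKO (−1.04, adjusted p = 0.0113).

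**Figure D1:**
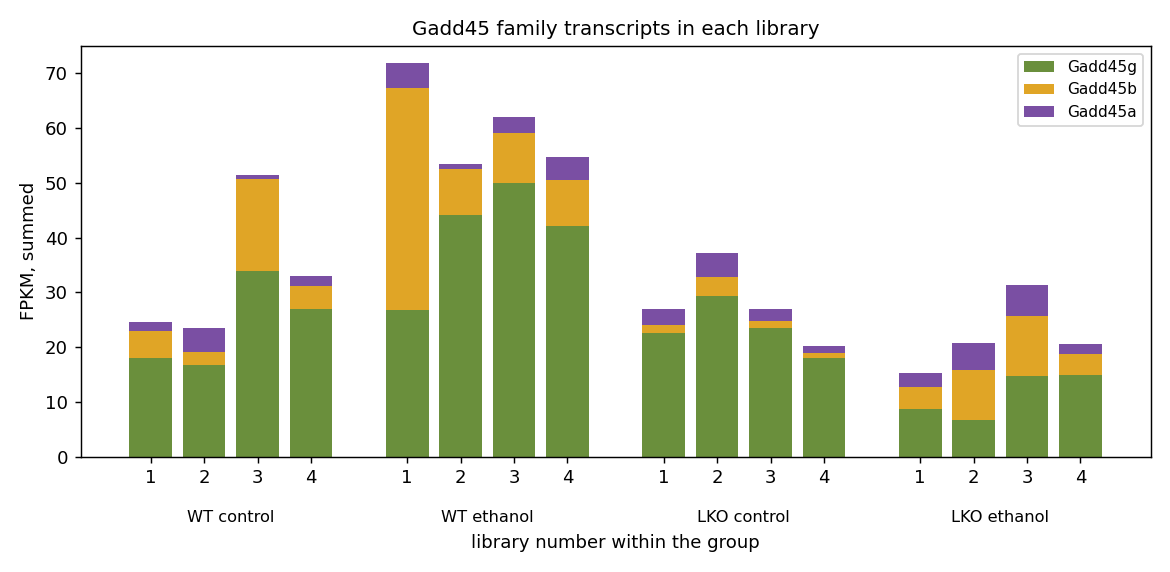
Stacked bars give the FPKM of Gadd45g, Gadd45b and Gadd45a in each of the 16 libraries, 4 per group (x axis: library number within the group). The Gadd45g part is below 15 FPKM in all 4 LKO ethanol livers, and the tallest Gadd45b part, 40.7 FPKM, is in WT ethanol library 1.

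Gadd45b, the early gene of the family, had its lowest mean in LKO livers on control diet and was higher on ethanol on average over genotypes, with 1 WT liver far above the rest. The gene (ENSMUSG00000015312) spans chr10:80930073-80932204 on the plus strand. WT control livers measured 4.97, 2.45, 16.9 and 4.28 FPKM, and WT ethanol livers 40.7, 8.31, 9.11 and 8.37 FPKM. LKO control livers measured 1.46, 3.51, 1.33 and 0.924 FPKM, and LKO ethanol livers 4.02, 9.18, 11.1 and 3.92 FPKM. All LKO ethanol livers were above all LKO control livers, beside 12.3% of all genes with no overlap in either direction. The 2 WT groups overlapped through WT control library 3. Group means were 16.6 ± 16.1 FPKM (SD, n = 4) in WT on ethanol, 7.15 ± 6.58 in WT on control diet, 7.04 ± 3.63 in LKO on ethanol and 1.81 ± 1.16 in LKO on control diet. Only the last of these groups stood below a neighbour with no overlap.

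The ethanol difference of Gadd45b, averaged over genotypes, was 1.27 ± 0.37 in the limma model (adjusted p = 0.0454), made of 1.06 ± 0.53 in WT and 1.48 ± 0.53 in LKO. Leaving out WT ethanol library 2 gave an average of 1.37 ± 0.39 (adjusted p = 0.0217). Within the sides of the split the WT difference was 2.12 and 0.00, and the LKO difference 1.10 and 1.86. Leaving out 1 library at a time moved the average between 1.005 (without WT ethanol library 1) and 1.51 (without WT control library 3). It kept an adjusted p under 0.05 in 7 of these 16 fits. It lost it without WT control library 1 (0.086), 2 (0.0995) or 4 (0.0908), WT ethanol library 1 (0.0605), LKO control library 1 (0.0808), 3 (0.0821) or 4 (0.0909), and LKO ethanol library 2 (0.103) or 3 (0.0955). It also lost it without the filter on low values (0.123) and with quantile (0.0568) or median-of-ratios scaling (0.0507). The LKO minus WT difference was −1.32 ± 0.53 on control diet (adjusted p = 1, unadjusted 0.0227), with −0.45 and −2.20 by side, and −0.90 ± 0.53 on ethanol (adjusted p = 0.518), or −1.09 ± 0.57 without WT ethanol library 2.

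Gadd45a, the p53-induced member, was low in all groups. The gene (ENSMUSG00000036390) spans chr6:67035096-67037457 on the minus strand, and 859 of its bases overlap E230016M11Rik on the opposite strand. Its 16 livers covered 0.638 to 5.57 FPKM, with group means of 2.11 ± 1.55 FPKM (SD, n = 4) in WT on control diet, 3.15 ± 1.59 in WT on ethanol, 2.71 ± 1.32 in LKO on control diet and 3.71 ± 1.80 in LKO on ethanol. All 4 groups overlapped. The ethanol difference was 0.44 ± 0.39 in WT and 0.33 ± 0.39 in LKO, and neither passed the test (adjusted p = 0.575 and 0.936). Leaving out WT ethanol library 2 gave 0.76 ± 0.38 in WT, and turned the LKO minus WT difference on ethanol from 0.20 ± 0.39 to −0.12 ± 0.38. By side of the split, ethanol in WT gave −0.19 and 1.07, or 0.54 on the side of libraries 1 and 2 without WT ethanol library 2, and LKO against WT on ethanol gave 0.47 and −0.07, or −0.26. Between 12 and 153 reads stood behind each Gadd45a value.

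The make-up of the family shifted between libraries. Gadd45g made up 57.1%, 31.9%, 46.9% and 72.0% of the summed Gadd45 FPKM in the 4 LKO ethanol livers, and 78.7% to 89.0% in LKO control livers. In WT livers it made up 65.9% to 81.5% on control diet and 77.0% to 82.6% in 3 livers on ethanol. The remaining WT ethanol liver, library 1, had 37.1% Gadd45g and 56.7% Gadd45b. These are shares of FPKM, so they compare transcripts per length.

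Trp53 mRNA passed the test in no comparison of the limma model with all 16 libraries weighted equally. The gene (ENSMUSG00000059552) spans chr11:69580359-69591873 on the plus strand. WT control livers measured 3.09, 3.42, 5.26 and 6.59 FPKM, WT ethanol livers 2.95, 2.78, 7.78 and 10.5 FPKM, LKO control livers 2.79, 2.63, 4.99 and 4.34 FPKM, and LKO ethanol livers 2.79, 5.20, 4.12 and 5.30 FPKM. All groups overlapped. Across groups, libraries 1 and 2 covered 2.63 to 5.20 FPKM with a median of 2.87, and libraries 3 and 4 covered 4.12 to 10.5 FPKM with a median of 5.28. The ethanol difference was 0.20 ± 0.34 in WT and 0.20 ± 0.34 in LKO, with adjusted p of 0.78 and 0.982. Leaving out WT ethanol library 2 gave 0.44 ± 0.33 in WT, and −0.49 ± 0.33 in place of −0.25 ± 0.34 for LKO against WT on ethanol. By side of the split the former was −0.14 and 0.54 and the latter 0.33 and −0.82, with −0.11 and 0.30 on the side of libraries 1 and 2 without that library. With library weights, under which 38.4%, 36.7% and 30.7% of all genes were called in these 3 comparisons, Trp53 was called for ethanol in WT (0.78, adjusted p = 0.0124), on average (0.54, adjusted p = 0.018) and for LKO against WT on ethanol (−0.79, adjusted p = 0.0282). p53 is controlled mainly through the stability of the protein, which RNA does not show.

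Mdm2 is both a p53 target and the ligase for p53. Its ethanol livers were above all control livers in LKO, beside 12.3% of all genes with no overlap in either direction. In WT this held once WT ethanol library 2 was set aside. Mdm2 did not pass the test with all 16 libraries weighted equally. The gene (ENSMUSG00000020184) spans chr10:117688875-117710758 on the minus strand. Control diet livers measured 7.45, 6.75, 7.97 and 9.99 FPKM in WT and 5.07, 7.26, 9.22 and 8.35 FPKM in LKO. Ethanol livers measured 10.6, 2.42, 14.2 and 21.6 FPKM in WT and 9.87, 14.8, 11.1 and 12.5 FPKM in LKO. The value of 2.42 FPKM in WT ethanol library 2 was the lowest of all 16. With all libraries the difference was 0.27 ± 0.41 in WT (adjusted p = 0.754) and 0.64 ± 0.41 in LKO (adjusted p = 0.733). Without WT ethanol library 2 the WT difference was 0.83 ± 0.24 (adjusted p = 0.0388) and the average over genotypes 0.73 ± 0.16 (adjusted p = 0.00532), while the LKO difference stayed at 0.64 with an SE of 0.22 (adjusted p = 0.118). The LKO minus WT difference on ethanol turned from 0.26 ± 0.41 to −0.29 ± 0.24 without that library. Split by side, the WT ethanol difference was −0.36 and 0.90 and the genotype difference on ethanol 1.06 and −0.54, with 0.52 and 0.18 on the side of libraries 1 and 2 once that library was left out. With library weights Mdm2 was called for ethanol in WT (0.86, adjusted p = 0.00207), as were 38.4% of all genes. With the split as a term and that library left out, Mdm2 was also called for ethanol in LKO (0.64, adjusted p = 0.0368), as were 10.7% of all genes.

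Cdkn1a had the widest diet difference of the 9 genes in both genotypes. The gene (ENSMUSG00000023067) spans chr17:29090976-29100727 on the plus strand, and 1046 of its bases overlap AC167363.2, a predicted transcript on the opposite strand. WT livers measured 4.09, 1.71, 24.5 and 2.41 FPKM on control diet and 76.4, 42.2, 44.4 and 62.2 FPKM on ethanol. LKO livers measured 3.59, 0.805, 1.79 and 1.86 FPKM on control diet and 23.0, 48.3, 48.5 and 6.72 FPKM on ethanol. Ethanol and control livers did not overlap in either genotype, beside 10.1% of all genes in WT and 12.3% in LKO. WT control library 3, at 24.5 FPKM, was still above 2 of the LKO ethanol livers. Means were 56.3 ± 16.1 FPKM (SD, n = 4) in WT on ethanol, 31.6 ± 20.5 in LKO on ethanol, 8.18 ± 10.9 in WT on control diet and 2.01 ± 1.16 in LKO on control diet. Within each diet the 2 genotypes overlapped.

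The limma model gave Cdkn1a an ethanol difference of 3.24 ± 0.63 in WT (adjusted p = 0.0107) and 3.19 ± 0.63 in LKO (adjusted p = 0.033), and 3.21 ± 0.45 on average (adjusted p = 0.000602). The interaction was −0.05 ± 0.89 (adjusted p = 0.992). The values were 3.36 ± 0.69 and 3.19 ± 0.64 without WT ethanol library 2. Within the sides of the split they were 3.96 and 2.52 in WT and 3.58 and 2.79 in LKO. Adjusted p of the WT difference stayed under 0.05 in all 16 fits leaving out 1 library, the highest being 0.0456 without WT control library 2. In LKO it stayed under 0.05 in 8 of them and passed it without WT control library 1 (0.0522), LKO control library 1 (0.0712), 2 (0.154), 3 (0.0916) or 4 (0.101), or LKO ethanol library 1 (0.0701), 2 (0.168) or 3 (0.147). It also passed 0.05 without the filter on low values (0.133). The genotype differences were −1.05 ± 0.63 on control diet and −1.10 ± 0.63 on ethanol, neither past the test (adjusted p = 1 and 0.506), and the latter was −1.22 ± 0.69 without WT ethanol library 2. On control diet the genotype difference was −1.42 without WT control library 2 and −0.34 without WT control library 3. The same omissions gave 2.87 and 3.95 for ethanol in WT.

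**Figure D2:**
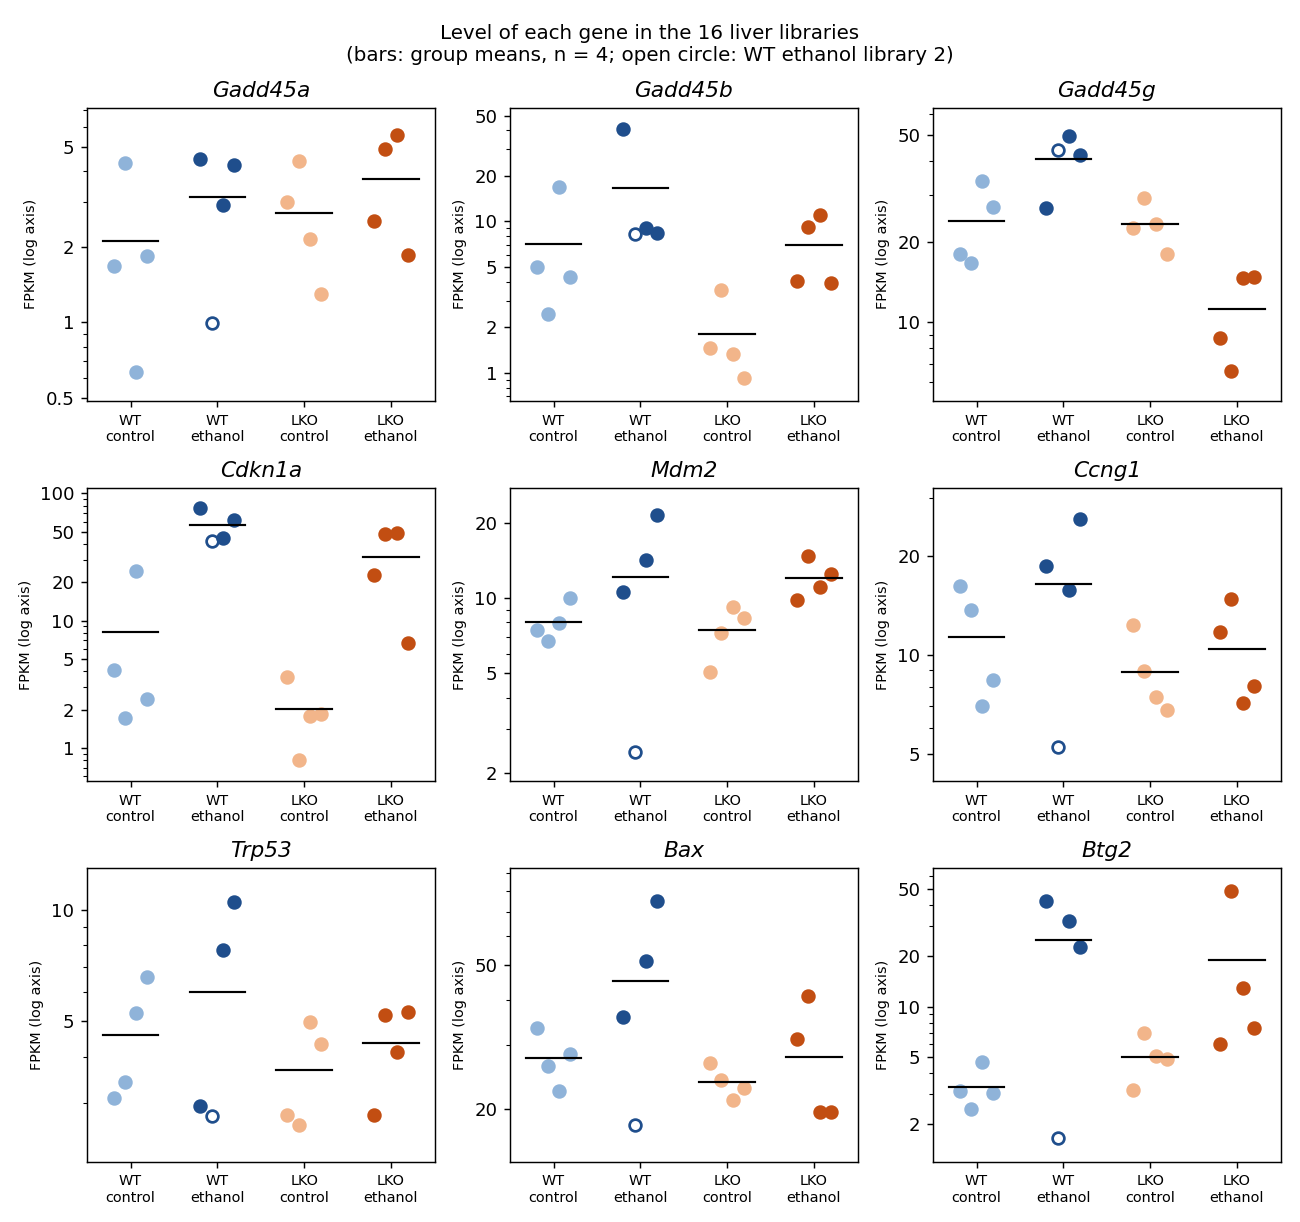
Each panel gives 1 gene, with FPKM on a log axis, 1 point per library, 4 libraries per group and a bar at the group mean; the open circle is WT ethanol library 2. Cdkn1a points on ethanol lie at or above 6.72 FPKM in both genotypes, and the 4 LKO ethanol points of Gadd45g lie at or below 14.8 FPKM, under all others.

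Btg2, an antiproliferative p53 target that binds the CCR4-NOT deadenylase, was high on ethanol in 3 of 4 WT livers and in 1 LKO liver. The gene (ENSMUSG00000020423) spans chr1:134075170-134079120 on the minus strand. WT livers measured 3.13, 2.46, 4.70 and 3.04 FPKM on control diet and 42.6, 1.66, 32.3 and 22.7 FPKM on ethanol, and the low value is that of WT ethanol library 2. LKO livers measured 3.17, 6.99, 5.05 and 4.87 FPKM on control diet and 6.01, 48.9, 12.9 and 7.42 FPKM on ethanol. The LKO groups overlapped through LKO control library 2. Means were 24.8 ± 17.4 FPKM (SD, n = 4) in WT on ethanol, 18.8 ± 20.3 in LKO on ethanol, 5.02 ± 1.56 in LKO on control diet and 3.33 ± 0.957 in WT on control diet.

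The ethanol difference of Btg2 was 2.03 ± 0.70 in WT (adjusted p = 0.112), 1.28 ± 0.70 in LKO (adjusted p = 0.639) and 1.65 ± 0.49 on average (limma, adjusted p = 0.0499). Without WT ethanol library 2 it was 2.93 ± 0.49 in WT (adjusted p = 0.00328) and 2.11 ± 0.33 on average (adjusted p = 0.000708). Without LKO ethanol library 2 the difference in LKO was 0.675. The average kept its call without WT ethanol library 2, LKO ethanol library 1 (0.0424) or LKO ethanol library 4 (0.0447), and leaving out any of the other 13 libraries gave adjusted p from 0.0626 (WT control library 3) to 0.111 (LKO ethanol library 2). The genotype difference on ethanol was −0.29 ± 0.70 with all libraries and −1.19 ± 0.49 without WT ethanol library 2, and within the sides of the split it was 0.80 and −1.38, with −1.22 in place of 0.80 once that library was left out. The call of the average also ended without the filter on low values (adjusted p = 0.135), with a pseudocount of 0.1 (0.067) and with voom (0.0657).

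Ccng1, which encodes the p53-induced cyclin G1, was spread over 5.24 to 25.9 FPKM with all groups overlapping. The gene (ENSMUSG00000020326) spans chr11:40748552-40755311 on the minus strand. Means were 16.4 ± 8.56 FPKM (SD, n = 4) in WT on ethanol, 11.3 ± 4.34 in WT on control diet, 10.4 ± 3.51 in LKO on ethanol and 8.87 ± 2.49 in LKO on control diet. No neighbours in this order differed beyond their spread. The ethanol difference was 0.39 ± 0.39 in WT and 0.19 ± 0.39 in LKO. Without WT ethanol library 2, which held the lowest value, the WT difference was 0.82 ± 0.30, and LKO against WT on ethanol was −0.91 ± 0.30 in place of −0.48 ± 0.39. Split by side, the WT ethanol difference was −0.52 and 1.29 and the genotype difference on ethanol 0.36 and −1.31, with 0.31 and −0.47 on the side of libraries 1 and 2 once that library was left out.

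Bax, which encodes a pore-forming protein of mitochondrial apoptosis, had the highest control diet means of the 6 genes outside the Gadd45 family, 27.7 ± 4.67 FPKM in WT and 23.7 ± 2.39 in LKO (SD, n = 4). The gene (ENSMUSG00000003873) spans chr7:45461697-45466898 on the minus strand, and 915 of its bases overlap Gm45808 on the same strand. WT livers measured 33.5, 26.3, 22.3 and 28.4 FPKM on control diet and 35.9, 18.0, 51.1 and 75.02 FPKM on ethanol. In LKO they measured 26.8, 24.0, 21.1 and 22.8 FPKM on control diet and 31.3, 41.1, 19.6 and 19.6 FPKM on ethanol. WT ethanol libraries 1, 3 and 4 were above all control livers and library 2 was below all of them. The ethanol difference of Bax was 0.53 ± 0.35 in WT (adjusted p = 0.439) and 0.16 ± 0.35 in LKO (adjusted p = 0.993). In WT it was 0.89 ± 0.27 without WT ethanol library 2, with an adjusted p of 0.0502. The LKO minus WT difference on ethanol was −0.57 ± 0.35 with all libraries (adjusted p = 0.547) and −0.94 ± 0.27 without that one (adjusted p = 0.147). Split by side, the ethanol difference in WT was −0.21 and 1.26 and the LKO minus WT difference on ethanol 0.48 and −1.61, with 0.26 and 0.00 on the side of libraries 1 and 2 without WT ethanol library 2. The ethanol difference of Bax in LKO was 0.49 and −0.16 by side. With library weights the LKO minus WT difference on ethanol was called for Bax (−1.10, adjusted p = 0.00275), Btg2 (−1.44, adjusted p = 0.0108) and Ccng1 (−0.83, adjusted p = 0.0321), as it was for 30.7% of all genes (3465, of which 3152 were lower). The median over all 11298 genes was then −0.32.

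**Figure D3:**
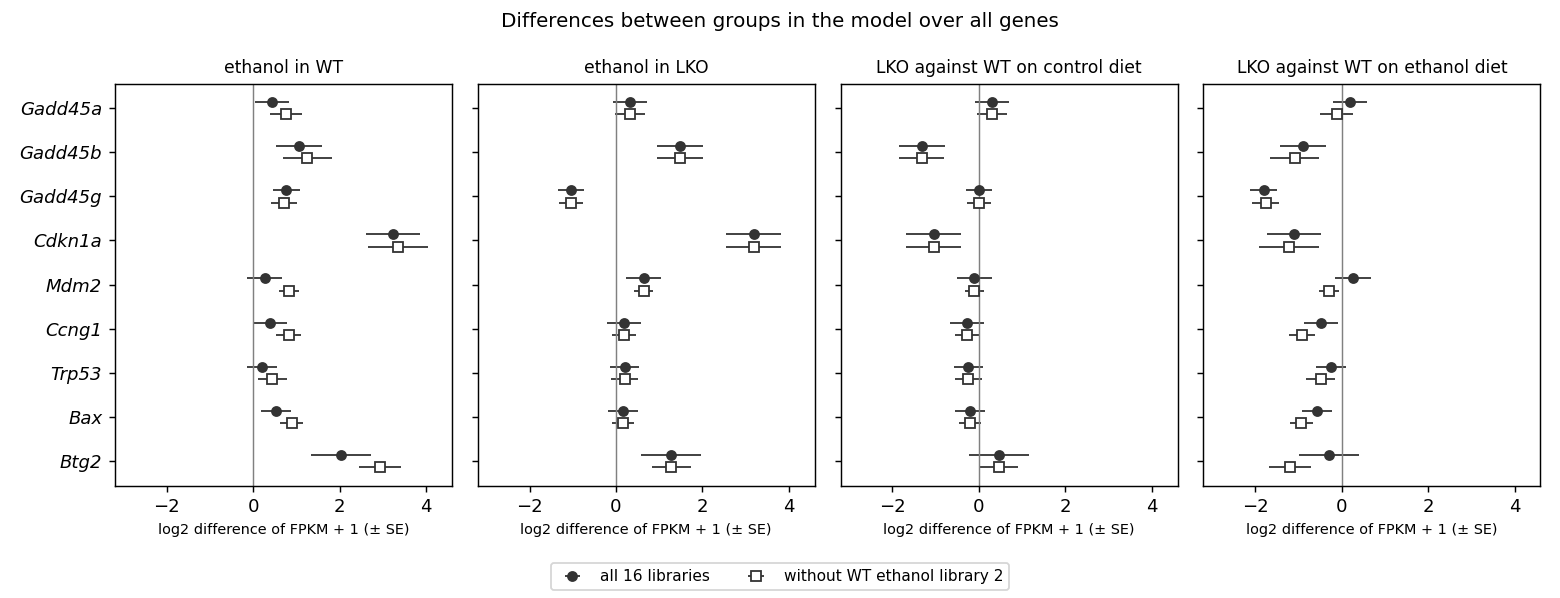
Points give log2 differences of FPKM + 1 with their SE for the 9 genes in 4 comparisons, from the model over all genes; filled circles use all 16 libraries and open squares leave out WT ethanol library 2. Cdkn1a lies near 3.2 in both ethanol comparisons, Gadd45g lies at −1.81 in LKO against WT on ethanol, and Mdm2, Btg2, Bax and Ccng1 move to the right in the WT ethanol comparison without that library.

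Counted over the 9 genes, ethanol in WT passed an adjusted p of 0.05 for 1 gene, Cdkn1a, beside 4.18% of all 11298 genes, and in LKO for the same gene beside 0.425%. The average over genotypes passed for 3 genes, Cdkn1a, Gadd45b and Btg2, beside 7.78%. LKO against WT passed for none on control diet, beside 0.00885% of all genes (1 of the 9 and 3.45% of all genes at an unadjusted p under 0.05), and for Gadd45g on ethanol, beside 0.0797% (3.43% without WT ethanol library 1). The interaction passed for none of the 9 and 0% of all genes in limma, with 1 of the 9 and 3.2% of all genes at an unadjusted p under 0.05. On the recovered reads voom also called none of the 9 on control diet or for the interaction. Without WT ethanol library 2 the counts were 3 in WT beside 9.48%, 1 in LKO beside 3.62%, 4 on average beside 20.5%, and 1 in LKO against WT on ethanol beside 0.221%.

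Groups did not overlap for 1 of the 9 genes in the WT ethanol comparison, beside 10.1% of all genes, and for 4 in the LKO ethanol comparison (Gadd45b, Cdkn1a and Mdm2 higher, Gadd45g lower), beside 12.3%. Between genotypes this held for none on control diet, beside 9.25%, and for Gadd45g on ethanol, beside 2.69%. Since the 9 genes were chosen with these comparisons known, nothing is read from these counts. The median difference of the 9 genes was 0.53 in WT, 0.33 in LKO, −0.21 for LKO against WT on control diet and −0.48 on ethanol, beside medians of −0.02, 0.06, −0.10 and −0.03 over all genes. Leaving out WT ethanol library 2 moved the median of all genes to 0.17 for ethanol in WT and −0.23 for LKO against WT on ethanol, and those of the 9 genes to 0.82 and −0.94. The genotype comparisons share no livers with each other, but each shares livers with the diet comparisons.

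Other genes of the p53 pathway were taken from a list of 28 further targets and 13 regulators, of which 32 were kept. Ethanol in WT passed the test for 2 of the 32, against 4.18% of all genes, both higher: Phlda3, which restrains AKT signalling (1.92 ± 0.36, adjusted p = 0.00877), and Apaf1, the core of the apoptosome (0.63 ± 0.17, adjusted p = 0.0499). Phlda3 measured 0.731, 1.02, 1.06 and 0.201 FPKM in WT control livers and 1.65, 5.50, 5.80 and 14.2 FPKM in WT ethanol livers. In LKO livers Phlda3 stayed between 0.753 and 1.62 FPKM on both diets. Ethanol in LKO passed for none of the 32 in limma or voom, against 0.425% of all genes in limma, with 2 at an unadjusted p under 0.05, against 9.19%. On average over genotypes 4 of the 32 passed, against 7.78% of all genes. Phlda3, Apaf1 and Tigar, a regulator of glycolysis (0.62 ± 0.13, adjusted p = 0.00614), were higher, and Slc19a2, a thiamine transporter, was lower (−1.26 ± 0.35, adjusted p = 0.0366). None of the 9 regulators of p53 kept passed in any comparison of the limma model, where 0% to 7.78% of all genes passed. No gene of the list passed between genotypes in either tool, with 1 on control diet and 7 on ethanol at an unadjusted p under 0.05, against 3.45% and 11.9% of all genes.

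In the fit without WT ethanol library 2, 7 of the 32 passed in WT, all higher, against 9.48% of all genes in either direction, among them Trp53inp1, a p53-induced nuclear protein (1.76 ± 0.34, adjusted p = 0.0066), Phlda3 (1.92 ± 0.39, adjusted p = 0.00923) and the exonuclease gene Aen (0.94 ± 0.20, adjusted p = 0.0113). In LKO 2 passed, against 3.62% of all genes, Tigar higher (0.80 ± 0.14, adjusted p = 0.00698) and Slc19a2 lower (−1.14 ± 0.26, adjusted p = 0.0277). Trp53inp1 was then also lower in LKO than in WT on ethanol, by −2.14 ± 0.34 (adjusted p = 0.019). It measured 78.3, 3.02, 62.4 and 41.8 FPKM in WT ethanol livers and 13.6, 28.6, 8.46 and 7.49 FPKM in LKO ethanol livers, with library 2 the lowest of the WT values. The median difference over the 32 genes was 0.09 in WT and 0.07 in LKO with all libraries, and 0.17 in WT without WT ethanol library 2. These 32 join 23 targets and 9 regulators. In the same order the medians were 0.26, 0.075 and 0.405 for the targets and −0.20, 0.04 and 0.003 for the regulators. Over all genes they were −0.02, 0.06 and 0.17.

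**Figure D4:**
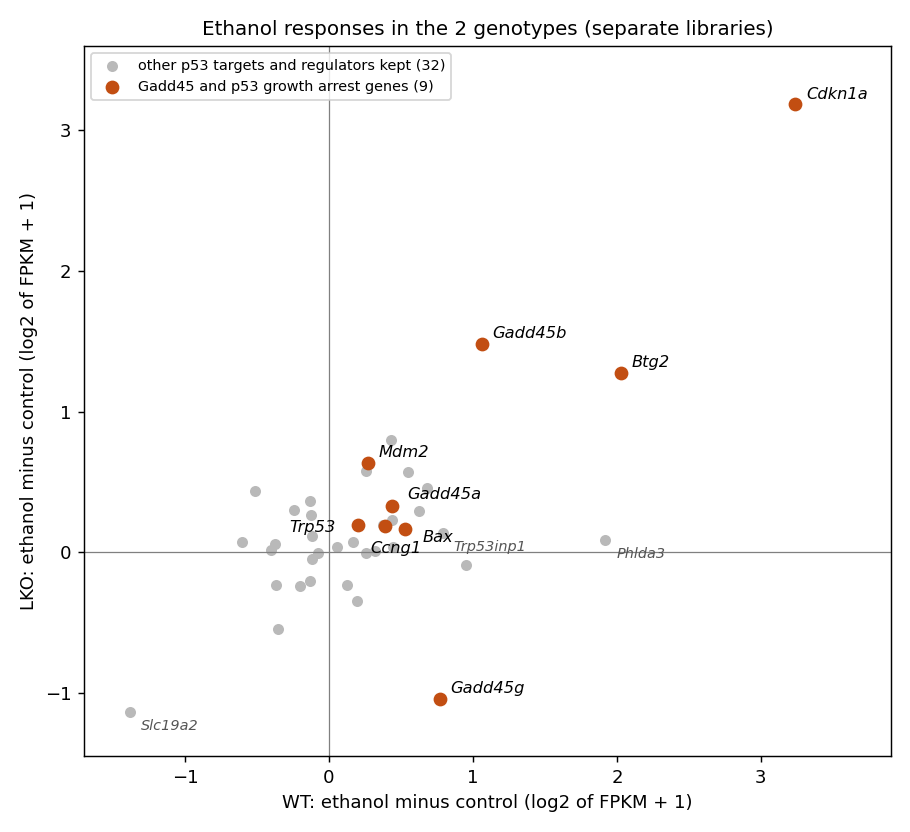
Each point is 1 gene, with its ethanol minus control difference in WT on the x axis and in LKO on the y axis, both in log2 of FPKM + 1 and from separate livers; orange points are the 9 genes and grey points the 32 other p53 pathway genes kept. Cdkn1a lies at 3.24 and 3.19, Gadd45g lies below 0 on the LKO axis only, and Phlda3 lies at 1.92 on the WT axis.

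The counts of the next 4 lists stand against 4.18% of all genes called for ethanol in WT, 0.425% in LKO and 7.78% on average. Among 15 Gadd45 partners and stress MAP kinases, 14 were kept and 1 passed on average over genotypes: Map2k6, a p38 kinase activator, was lower on ethanol (−1.10 ± 0.24, adjusted p = 0.00837). Of 14 kept growth arrest genes outside the 9, Ddit3, which encodes the stress factor CHOP, was higher in WT (1.495 ± 0.31, adjusted p = 0.0137), and on average Ddit3 was higher (1.21 ± 0.22) and Gas1 lower (−1.10 ± 0.29). Of 10 kept BCL2 family genes other than Bax, the proapoptotic Bmf was lower on ethanol in LKO (−1.94 ± 0.27, adjusted p = 0.00505). Its level was 5.16 ± 1.86 FPKM (SD, n = 4) in LKO on control diet and 0.556 ± 0.138 on ethanol. Of 11 kept proliferation genes, Mcm2 (1.11 ± 0.25) and Ccne1 (1.12 ± 0.30) were higher on ethanol in WT, with adjusted p of 0.0193 and 0.0476. Ccne1 was highest in WT ethanol library 2, at 3.49 FPKM, and was not called without it. Counts in WT without that library were 1 of 14 partners and kinases, 3 of 14 growth arrest genes, 1 of 10 BCL2 family genes and 1 of 11 proliferation genes, all higher, against 9.48% of all genes in either direction.

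Immediate early genes are transcribed quickly after many stimuli. Of 10 kept, none passed on ethanol in LKO, against 0.425% of all genes, and 2 were higher in WT, against 4.18%: Atf3 (2.36 ± 0.51, adjusted p = 0.0174) and Klf6 (1.74 ± 0.40, adjusted p = 0.023). On average over genotypes 5 were higher, led by Atf3 (2.15 ± 0.36), Klf6 (1.48 ± 0.28) and Egr1 (1.83 ± 0.37), while 7.78% of all genes were called in either direction. With WT ethanol library 2 left out, 6 were higher in WT, 4 in LKO and 9 on average, where 9.48%, 3.62% and 20.5% of all genes were called in either direction. Their summed level over 11 genes had a median of 72.1 FPKM (37.2 to 79.9) in WT on control diet and 150.6 FPKM (41.5 to 156) on ethanol, the lowest being WT ethanol library 2, with Fos at 0. In LKO it had a median of 69.5 FPKM (41.2 to 85.3) on control diet and 92.6 FPKM (68.0 to 178) on ethanol. Neutrophil markers, 6 genes, summed to 1.45 to 6.59 FPKM in WT on control diet, 3.31 to 10.1 in WT on ethanol, 2.62 to 5.17 in LKO on control diet and 3.25 to 19.2 in LKO on ethanol, with Ly6g at 0 in 14 of the 16 livers. The part of either group of genes in the differences of Cdkn1a, Gadd45b and Btg2 was not tested.

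Some pairs of the 9 genes followed each other across the 16 libraries and others did not. Spearman's rho, given as a description over libraries that share diet, genotype and library side, was 0.85 between Gadd45b and Cdkn1a, 0.89 between Ccng1 and Bax, 0.81 between Mdm2 and Btg2 and 0.73 between Mdm2 and Trp53. Gadd45g followed none of the other 8, with rho from −0.33 (Gadd45a) to 0.20 (Gadd45b). Cdkn1a had a rho of 0.27 with Trp53, 0.61 with Mdm2 and 0.59 with Btg2, and without WT ethanol library 2 these were 0.33, 0.72 and 0.70.

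Among 10455 kept genes with a symbol, leaving out predicted genes and pseudogenes, those most like each gene by Spearman's rho over the 16 libraries were as follows. Cdkn1a was most like Ier3 (0.924), Mapkapk2 (0.921) and Tnfrsf12a (0.918), and Gadd45b most like Gdf15 (0.871), Nr4a1 (0.853) and Mapkapk2 (0.85). Gadd45g was most like Miip (0.879), Zfp771 (0.876) and Ogfod2 (0.874), and Gadd45a most like Pla1a (0.844), Fam124a (0.844) and Rtca (0.838). Trp53 was most like Scrib (0.979), Zfp280b (0.976) and Smarcb1 (0.974), and Mdm2 most like Rap2c (0.971), Nle1 (0.968) and Ajuba (0.962). Btg2 was most like Cdipt (0.947), Capn2 (0.941) and Anxa5 (0.929), Ccng1 most like Prpf31 (0.950), Arf2 (0.950) and Snx5 (0.944), and Bax most like Pold4 (0.956), Aida (0.953) and Nedd1 (0.950). Without WT ethanol library 2 all 3 stayed the same for Bax and none for Gadd45a or Gadd45b.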

How the data were processed

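The deposited table holds FPKM for 35275 gene IDs in 16 libraries, made by the authors. Per the submitters' processing notes, fastp, STAR 2.6.1, HTSeq, DESeq2 and the mouse build mm10 were used, with no role given. Annotation, strand setting and treatment of multiply mapped reads are not given in the sources used here, so reads of overlapping genes cannot be told apart.

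FPKM values could be written as whole multiples of 1 read (within 0.1 read for 100% of values of 24377 genes above 0), which gave the depth of each library. Gene lengths were solved so that values became whole, so the 100% is not a separate check. Reads summed over genes left 0.0579% of the depth unexplained in WT ethanol library 2 and at most 0.000788% in any other library.

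The 9 genes and all lists were chosen with earlier results of these data known. Genes with at least 1 FPKM in at least 4 libraries (11298) entered limma 3.58.1 (R 4.3.3) as log2(FPKM + 1), with 4 group means, 6 contrasts, an intensity trend and Benjamini-Hochberg adjustment over all of them. A call is an adjusted p under 0.05, 2-sided. Scripts were tested on simulated data. Named genes are the 9 genes and, per list and comparison, at most 3 called genes with the smallest adjusted p. The exception is the average over genotypes in the other p53 pathway genes, where all 4 called genes are named. For likeness the 3 genes of highest Spearman's rho are named. Libraries are numbered within each group in the order listed, which pairs nothing. 3′ UTRs were read from GENCODE M21 and promoters from RefSeq, GRCm38.p6. No protein sequence was used here. Alternatives were another pseudocount (0.1), no filter, quantile and median-of-ratios scaling, voom on the recovered reads, library weights, a term for the library split and leaving out each library.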

Additional observations from a re-analysis of the deposited data

Results flagged for a closer look

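In 36 groups of 4 libraries (9 genes in 4 groups), 3 held a library whose gap to its neighbour, relative to the range of the group, was above Dixon's 95% critical value. Chance gives about 1 in 20 groups where values are normally distributed, which FPKM need not be. On the log2(FPKM + 1) scale, tried after seeing the data, the gap over the range was 0.945 for Gadd45b, above that critical value, and 0.719 for Cdkn1a and 0.65 for Btg2, both below it. Gadd45b measured 40.7 FPKM in WT ethanol library 1, against 8.31 to 9.11 FPKM in the other WT ethanol livers. Cdkn1a measured 24.5 FPKM in WT control library 3, against 1.71 to 4.09 FPKM in the other WT control livers, and this library also held the highest control value of Gadd45b, 16.9 FPKM. Btg2 measured 48.9 FPKM in LKO ethanol library 2, against 6.01 to 12.9 FPKM in the other LKO ethanol livers.

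The mean ethanol responses of Gadd45g had opposite signs, though neither passed the test (limma, adjusted p = 0.175 in WT and 0.18 in LKO). All 4 WT ethanol livers were above the WT control mean, and all 4 LKO ethanol livers were below the LKO control mean. WT livers on the 2 diets overlapped. How many of all genes meet this rule was not counted. The LKO response minus the WT response was −1.81 on the log2 scale. In the limma model over all genes this difference did not pass, with an adjusted p of 0.927. Library weights called the Gadd45g difference (−2.11, adjusted p = 0.00781), as they did 506 of 11298 genes, and none of the other 23 alternatives did.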

How the results depend on the processing

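Each of the 54 differences of the 9 genes (6 comparisons) was recomputed under 24 alternatives. Of these 1296 values 6 moved by more than 1 SD (the SD within groups), and no called difference changed sign. Leaving out 1 of 4 libraries cannot move a difference by more than that SD, so this count says nothing of those fits. Differences that were not called did change sign. For LKO against WT on ethanol, Mdm2 went from 0.26 to −0.29 without WT ethanol library 2. Of 22 calls of listed genes, 101 of 528 recomputed values lost the call and 0 changed sign. No paired analysis was made, because the labels do not say which animals pair. Animal numbers in the titles, some consecutive across diets, are not said to pair animals.

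Counts of the 9 genes called (1 for ethanol in WT, 1 for ethanol in LKO, 3 for the average, 0 for genotype on control diet, 1 for genotype on ethanol, 0 for the interaction) moved as follows. With library weights (0.0418 for WT ethanol library 2) they were 6, 2, 6, 0, 5 and 2, while calls over all 11298 genes rose to 4334, 869, 4147, 260, 3465 and 506. With the library split as a term and without WT ethanol library 2 they were 5, 3, 6, 0, 2 and 0, beside 2229, 1206, 3684, 9, 178 and 0 of all genes. Without the filter on low values they were 0 in LKO, 1 for the average and 0 for genotype on ethanol. Quantile and median-of-ratios scaling gave 0 for genotype on ethanol, and the average gave 2 with either scaling, with a pseudocount of 0.1 or with voom. Leaving out 1 library at a time gave 1 to 3, 0 to 1, 1 to 4, 0, 0 to 1 and 0.

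Counts of the 32 other p53 pathway genes called (2, 0, 4, 0, 0 and 0) were 14, 2, 12, 1, 17 and 3 with library weights, and 8, 3, 11, 0, 1 and 0 when that split was a term and the same library was left out, beside those same totals over all genes. In WT they were 1 with a pseudocount of 0.1 or no filter and 4 with quantile or median-of-ratios scaling. In LKO they were 1 with median-of-ratios scaling or the split term alone, and the average gave 2 without the filter. Leaving out 1 library at a time gave 1 to 7, 0 to 2, 1 to 9, 0, 0 to 4 and 0 to 1. The cause was not tested.

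Over all genes, ethanol in WT gave 472 calls (292 higher, 180 lower), 932 with quantile scaling (470 and 462) and 765 with median-of-ratios scaling (379 and 386). It gave 4334 with library weights (3539 and 795), 2229 with the split term and that library left out (1698 and 531), 776 with the split term alone, 283 without the filter and 146 to 1071 leaving out 1 library. As few as 12 reads stood behind a Gadd45a value, in WT ethanol library 2.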
